A study of Homo sapiens with 14 samples.

Results

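The cytosolic ribosomal protein genes are the 82 of 24489 rows in the deposited RNA tables whose symbols start with RPL or RPS and a digit, or are RPLP0, RPLP1, RPLP2 or RPSA. Of 131 symbols with such a start, 27 pseudogene rows, 12 S6 kinase rows, 8 paralogs ending in L, 1 antisense row and RPS19BP1, a binding protein of RPS19, were left out. The 82 rows held 46 proteins of the large subunit and 31 of the small subunit, which together are called the 77 subunit genes here, plus the read-through rows RPL17-C18orf32, RPL36A-HNRNPH2 and RPS10-NUDT3 and the Y-linked copies RPS4Y1 and RPS4Y2. The 12 RNA libraries came from the glioblastoma cell line U251MG, with 3 libraries each of radioresistant cells, control cells, radioresistant cells with the hairpin shIFI16 and radioresistant cells with the hairpin shNC. Radioresistant cells, and so both hairpin groups, had received X-rays in 30 daily fractions of 2 Gy, 60 Gy in all, and every group is labelled as wild type in genotype. shIFI16 is directed at IFI16, a nuclear DNA sensor, and the labels name 1 hairpin for each hairpin group and no rescue group. The columns bear codes only, and which group a code stands for is an inference: UR was taken for radioresistant cells and UN for control cells after similar codes of the ATAC-seq pair, and URS for shIFI16 and URN for shNC. IFI16 had 7.68, 7.90 and 6.71 TPM in shIFI16 cells, against 125, 140 and 127 TPM in shNC cells, which goes with that reading, while the radioresistant and control columns have no such check. Values are transcript abundances in TPM, which are scaled by gene length. Levels of different genes are set beside each other only within a limit given below, since reads can be shared with copies.

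Each ribosome holds 1 copy of nearly every one of these proteins, built around ribosomal RNA in the nucleolus and joined from a small subunit, which reads the mRNA, and a large subunit, which forms the peptide bond. Their mRNAs are among the most abundant of dividing cells and usually begin with a C and a run of pyrimidines, the 5′ terminal oligopyrimidine (TOP) tract. Through this tract the kinase complex mTORC1 and the protein LARP1 control how well the mRNAs are translated, a layer that RNA levels do not show. Loss of 1 copy of several of these genes causes Diamond-Blackfan anaemia, and free RPL5 and RPL11, which carry the 5S ribosomal RNA, bind MDM2 and so reach p53.

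The annotated start sites mostly carry the shared sequence of the family, and they are shown for a selection of the members described below. RPL17, with no tract near its annotated start, and RPS15, with the tract displaced from it, are among them. The starts used in these cells were not measured. Start sites of 62 of the 77 subunit genes were matched in RefSeq (GRCh38.p14). A C followed by at least 4 pyrimidines lay within 10 bases of an annotated start in 57 of these 62 genes (91.9%), against 42.3% of the 9791 matched genes tested in the radioresistant comparison. The tract began exactly at an annotated start in 46 of 62 (74.2%), against 7.51% of those genes, and RPL17, RPL27, RPL6, RPS29 and RPS4X had none in the window. Each line gives 10 bases before and 20 bases from an annotated start on the strand of the gene, with the tract in capitals.
RPS27: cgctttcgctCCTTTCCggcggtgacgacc
RPLP0: ggcgcgaggcCCTTCTCTCgccaggcgtcc
RPS19: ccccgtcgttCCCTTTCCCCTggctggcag
RPL21: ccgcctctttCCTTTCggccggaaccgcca
RPL41: cttcgcctttCTCTCggccttagcgccatt
RPS25: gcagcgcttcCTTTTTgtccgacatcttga
RPL13A: aaacctcctcCTTTTCCaagcggctgccga
RPS6: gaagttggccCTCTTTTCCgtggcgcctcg
RPS15: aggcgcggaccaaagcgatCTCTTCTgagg
RPL17: ttccctaagcagcctgaggtgagtgtttct
The windows lie at chr1:153990752-153990781 (plus strand) for RPS27, chr12:120201092-120201121 (minus strand) for RPLP0, chr19:41860245-41860274 (plus strand) for RPS19 and chr13:27251548-27251577 (plus strand) for RPL21. RPL41 is at chr12:56116623-56116652 (plus strand), RPS25 at chr11:119018324-119018353 (minus strand), RPL13A at chr19:49487598-49487627 (plus strand) and RPS6 at chr9:19380217-19380246 (minus strand). RPS15 is at chr19:1438386-1438415 (plus strand), where the tract begins 9 bases after the annotated start, and RPL17 at chr18:49492446-49492475 (minus strand).

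Other motifs were searched on both strands of 300 bases, 250 before and 50 after the start. The core of the ETS factors, CCGGAAG, was found in 22 of 62 members (35.5%), against 22.3% of the tested genes. The core of YY1, AAGATGG, was found in 8 of 62 (12.9%), against 9.52%, and the TATA box core TATAAA in 5 of 62, against 8.30%. These are matches of letters only and were not tested.

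Ribosomal protein mRNAs took 8.51 to 10.0% of all TPM in radioresistant libraries and 9.13 to 10.1% in control libraries. In the other table they took 13.8 to 15.2% in shIFI16 libraries and 12.7 to 14.2% in shNC libraries. Summed, they had 90874 ± 8268 TPM in radioresistant cells and 94899 ± 5407 TPM in control cells (SD, n = 3 each), a difference smaller than the SD of radioresistant cells. It was 145774 ± 7159 TPM in shIFI16 cells and 135667 ± 7651 TPM in shNC cells (SD, n = 3 each), with the shIFI16 range of 138114 to 152297 TPM overlapping the shNC range of 127334 to 142377 TPM. The tables were normalized separately, so the higher share in the hairpin libraries was not tested. In bulk libraries, fewer cells of a type and less RNA per cell cannot be told apart.

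In the deposited TPM, levels of the 77 subunit genes differed by far more than the equal copies in the ribosome. In radioresistant cells the group means ran from 9.11 TPM for RPS27 to 4275 TPM for RPS21, and in control cells from 8.84 TPM for RPL36A to 4896 TPM for RPL37A. In shIFI16 cells they ran from 6.26 to 8134 TPM and in shNC cells from 9.02 to 7188 TPM, with RPS28 lowest and RPL35A highest in both. Over all 12 libraries the 10 highest members were RPL35A, RPL37A, RPL27, RPS6, RPL8, RPS21, RPL35, RPL36, RPL11 and RPL23. The order of levels was nearly the same between groups of 1 table, with a Spearman correlation over the 77 genes of 0.98 between radioresistant and control cells and 0.99 between shIFI16 and shNC cells. It is a description with no test, and genes of 1 library share that library.

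At the low end, 13 members stayed under 100 TPM in every group, among them RPL10, RPL12, RPL27A, RPL36A, RPL7, RPL9, RPS26, RPS27, RPS27A, RPS28, RPS3A and RPS7. Some are well known: RPL10 completes the large subunit before the subunits join, and RPS27A encodes ubiquitin fused to a small subunit protein. RefSeq lists a median of 30 pseudogenes named after these 13 genes, against 13.5 for the other 64. Across the 77 genes, level and number of pseudogenes had a Spearman correlation of -0.41 in radioresistant cells, -0.37 in control cells, -0.35 in shIFI16 cells and -0.36 in shNC cells, as a description with no test. Exceptions were RPL21, with 137 pseudogenes and 1618 TPM in radioresistant cells, and RPS28, with 9 pseudogenes and 11.3 TPM there. How reads shared with copies were counted is not given in the sources used here, so the level of each member is uncertain. The plainest case was RPL13A, with 281 ± 42.9 TPM in radioresistant cells and 355 ± 28.2 TPM in control cells, beside its pseudogene row RPL13AP5 at 4491 ± 484 TPM and 6255 ± 896 TPM in the same groups (SD, n = 3 each).

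**Figure D1:**
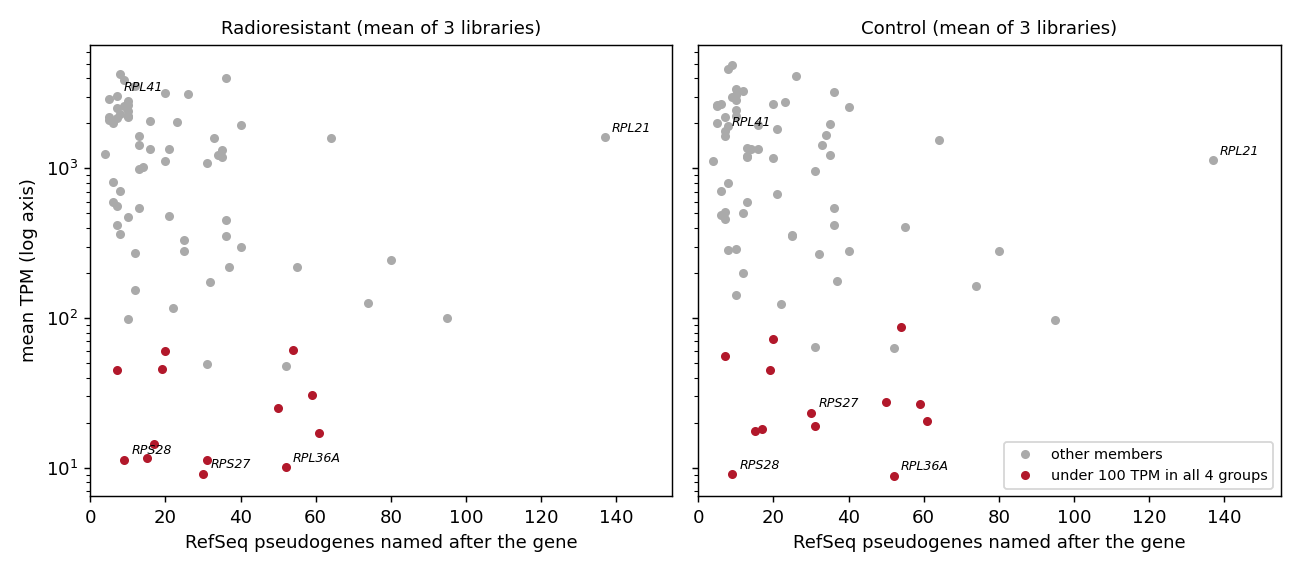
Mean TPM of the 77 subunit genes (log axis) against the number of RefSeq pseudogenes named after each, in radioresistant cells (left) and control cells (right), each point 1 gene and the mean of 3 libraries. The 13 red points are the members under 100 TPM in all 4 groups, which have a median of 30 pseudogenes against 13.5 for the others; RPL21, with 137, stands apart at a high level.

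Facts of the whole series that bear on these genes are the following. The deposited TPM keep no sequencing depth, so no counting interval can be given, and no label says that replicates are separate cultures; p-values then reflect only how these libraries vary, possibly for technical reasons. Of 7 glioma markers, 6 averaged at least 1 TPM in radioresistant cells, 7 in control cells and 6 in each hairpin group, S100B being the exception; their summed level was 6592 to 7169 TPM in radioresistant cells, against 15077 to 15322 TPM in control cells. All 7 were lower in radioresistant cells, for example GFAP, the astrocyte filament protein (102, 83.9 and 56.2 TPM, against 3882, 4073 and 4079 TPM). The glioma marker sum was 5493 to 6416 TPM in shIFI16 cells and 7360 to 7978 TPM in shNC cells. Single markers went both ways there: of 6 tested, 3 rose and 2 fell with shIFI16, against 16.6% and 16.3% of all genes. GFAP had 33.0, 30.2 and 30.1 TPM in shIFI16 cells and 1.75, 2.06 and 1.37 TPM in shNC cells. The macrophage marker CD68 averaged 15.6 ± 1.44 TPM in shIFI16 cells and 38.5 ± 1.56 TPM in shNC cells, and the endothelial marker CDH5 9.47 ± 1.07 and 3.32 ± 0.453 TPM in the same groups (SD, n = 3 each), log2 changes of -1.25 and 1.28. Epithelial and oligodendrocyte markers averaged under 1 TPM in every group, and of the other cell types only CD68, CD14, CDH5, SYT1 and SNAP25 reached 1 TPM in any group. The part of these differences in the ribosomal protein results was not tested.

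In radioresistant cells, the ribosomal protein genes did not move as a block: a subset fell, led by RPS27, RPLP0 and RPS2, and RPL21 and RPS19 rose. The limma test on log2(TPM + 1) covered genes that reached 1 TPM in 3 or more libraries of the comparison, with Benjamini-Hochberg adjustment over every gene tested and a threshold of 0.05. Of 82 members, 78 were tested, and RPL17-C18orf32, RPS10-NUDT3, RPS4Y1 and RPS4Y2 were not; the last 2 are listed at 0 in all libraries. Of these 78, 18 fell (23.1%), against 27% of all 13127 genes tested, and 2 rose (2.56%), against 16.9%. Every radioresistant library was below every control library in 18 members, not all of them past the threshold (background 31.7%), and above in 5 (background 21.5%). The median change was -0.13 on the log2 scale over the members and -0.11 over all genes tested, so relative to all genes the members lay at -0.03. Only 3 members differed by 1 log2 unit or more, against 11.6% of all genes.

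By subunit, 10 of 31 small subunit genes fell and 1 rose, and 8 of 46 large subunit genes fell and 1 rose. Over all genes 27% fell and 16.9% rose. The median changes were close, at -0.16 for small and -0.13 for large subunit genes, and a difference between the subunits was not tested. With values scaled by median ratios, which moved the median of all genes by 0.12, 8 members fell and 4 rose, while over all genes 2914 fell and 2984 rose, against 3542 and 2220 with TPM as deposited. With quantile normalization 19 fell and 1 rose, against 23.7% falling and 21.0% rising over all genes. The falls below are therefore relative to the scale of TPM. RPL15, RPL9, RPLP0, RPS2, RPS20 and RPS27 were among 7 members that fell under all 16 alternatives, each library left out in turn included.

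**Figure D2:**
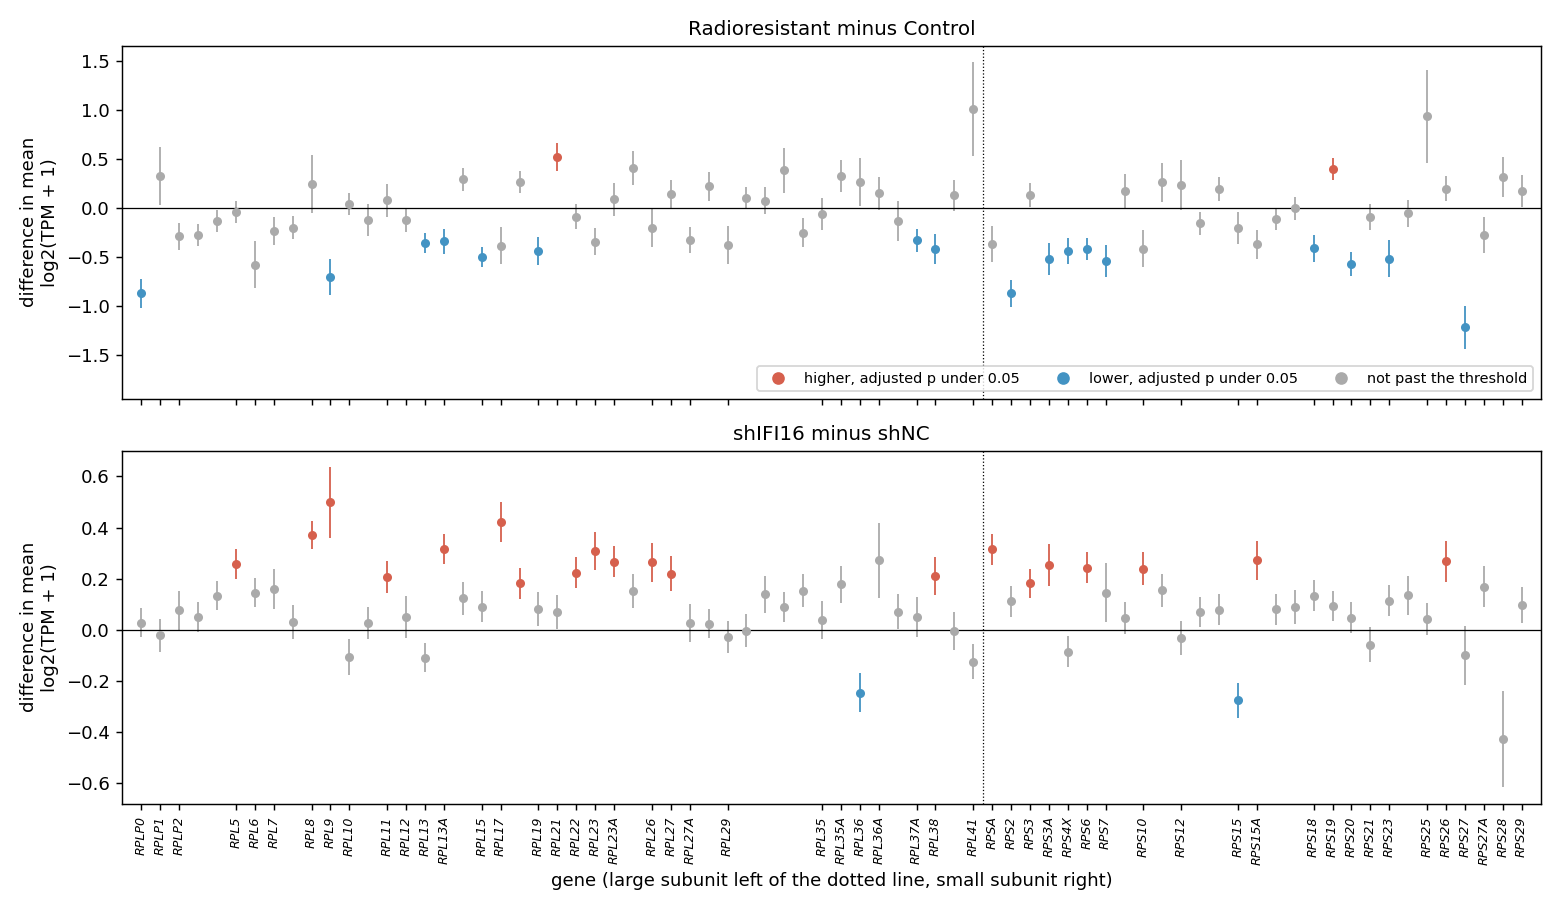
Difference in mean log2(TPM + 1) of 74 of the 77 subunit genes, with its standard error from limma, for radioresistant minus control cells (top) and shIFI16 minus shNC cells (bottom); large subunit genes stand left of the dotted line. In the top panel 17 of the genes drawn are lower and 2 higher at an adjusted p under 0.05, and in the bottom panel 2 are lower and 20 higher; genes named in the text are labelled, the axes differ in range, and RPL41 and RPS25 carry the widest errors of the top panel.

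RPS27, a zinc-finger protein of the small subunit and a Diamond-Blackfan anaemia gene, had 9.77, 9.94 and 7.61 TPM in radioresistant cells, against 21.3, 32.4 and 16.2 TPM in control cells. The groups did not overlap, and the change was -1.22 (SE 0.22, adjusted p = 0.0012), at a level so low that the TPM of this row is among those least certain. RPLP0, the base of the P stalk that recruits translation factors to the large subunit, had 254, 253 and 310 TPM in radioresistant cells and 567, 552 and 395 TPM in control cells. Its change was -0.88 (SE 0.15, adjusted p = 0.00099), and the highest radioresistant library stayed below control replicate 3, the lowest of its group. RPLP2, one of the acidic proteins that RPLP0 holds, averaged 2198 ± 408 and 2663 ± 62.2 TPM in the same order, and its difference of -0.29 did not pass (adjusted p = 0.11). RPLP1, its partner, differed by 0.32 (SE 0.30, adjusted p = 0.41).

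RPS2, a protein at the entry of the mRNA channel, had 200, 217 and 245 TPM in radioresistant cells and 433, 454 and 336 TPM in control cells. All radioresistant libraries lay below all control libraries (change -0.88, SE 0.13, adjusted p = 0.00050). RPS3, its neighbour at the entry, averaged 562 ± 76.3 TPM in radioresistant cells and 513 ± 50.8 TPM in control cells (SD, n = 3 each) and did not pass (adjusted p = 0.44). RPS20, a protein of the small subunit head, had 1227, 1301 and 1434 TPM in radioresistant cells, against 2248, 1954 and 1743 TPM in control cells (change -0.58, SE 0.12, adjusted p = 0.0033). In RPS2 and RPS20, control replicate 3 was the lowest control library and still above every radioresistant one.

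RPL15, a large subunit protein and a Diamond-Blackfan anaemia gene, had 433, 514 and 486 TPM in radioresistant cells and 689, 674 and 665 TPM in control cells. Its 3 control libraries agreed closely, and its change was -0.50 (SE 0.10, adjusted p = 0.0030). RPL9, a protein near the base of the P stalk, had 9.01, 10.2 and 14.8 TPM in radioresistant cells, against 19.2, 21.7 and 15.9 TPM in control cells (change -0.71, SE 0.19, adjusted p = 0.010), with a gap of about 1 TPM between the nearest libraries of the groups. RPS6, the small subunit protein that S6 kinases phosphorylate, had 2794, 3099 and 3472 TPM in radioresistant cells and 4228, 4382 and 3913 TPM in control cells (change -0.42, SE 0.11, adjusted p = 0.013). RPS4X, the X-linked member with a Y-linked copy, had 1877, 2022 and 2181 TPM in radioresistant cells, against 3183, 2844 and 2307 TPM in control cells (change -0.44, SE 0.13, adjusted p = 0.020). Among the other falls, RPS7 changed by -0.54, RPS3A by -0.53, RPS23, a protein of the decoding centre, by -0.52, and RPL19, at the rim of the exit tunnel, by -0.44. RPL38, RPS18, RPL13, RPL13A and RPL37A fell too, with changes of -0.43 to -0.33; in RPL13A, RPL38, RPS18, RPS23 and RPS3A the groups overlapped.

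RPL21 and RPS19 rose. RPL21, a large subunit protein, had 1338, 1789 and 1728 TPM in radioresistant cells and 1041, 1042 and 1310 TPM in control cells (change 0.51, SE 0.14, adjusted p = 0.014). RPS19, which is needed to mature the small subunit and is the gene first tied to Diamond-Blackfan anaemia, had 1996, 2166 and 2347 TPM in radioresistant cells, against 1569, 1570 and 1807 TPM in control cells (change 0.40, SE 0.11, adjusted p = 0.015). Neither rise passed in every alternative: the highest adjusted p was 0.066 for RPL21 and 0.080 for RPS19. The 5S particle genes did not pass, with RPL5 at 1195 ± 127 TPM in radioresistant cells and 1229 ± 79.5 TPM in control cells and RPL11 at 2112 ± 394 and 2006 ± 395 TPM in the same groups (SD, n = 3 each). Of 9 genes around the exit tunnel, RPL19 alone fell and none rose; of 18 Diamond-Blackfan anaemia genes, RPS27, RPL15 and RPS7 fell and RPS19 rose, beside the 27% falling and 16.9% rising over all genes.

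Single libraries moved these counts, and those over all genes with them. The number of falling members was 7 without radioresistant replicate 1 (22.3% of all genes fell), 10 without control replicate 1 (21.4%), 7 without control replicate 2 (17.4%) and 29 without control replicate 3 (34.3%). The number of rising members was 1 without radioresistant replicate 2 (12.5% of all genes rose), 0 without radioresistant replicate 3 (11.6%), 1 without control replicate 1 (14.9%), 0 without control replicate 2 (12.8%) and 19 without control replicate 3 (21.4%).

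**Figure D3:**
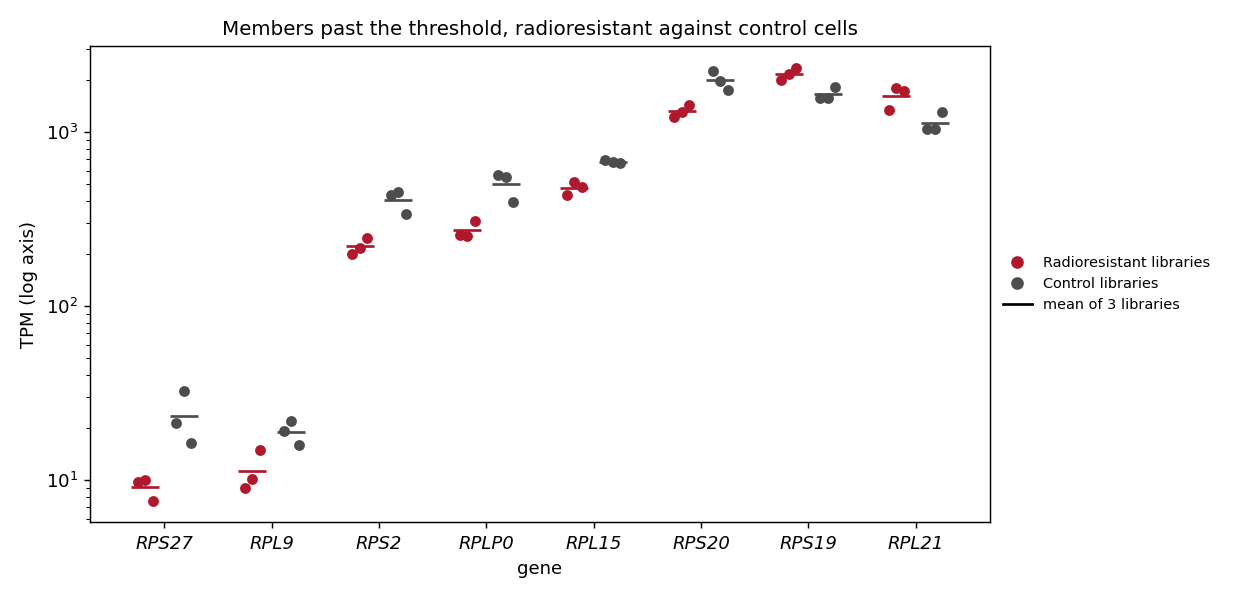
TPM (log axis) of 8 members past the threshold in each radioresistant and control library, with the mean of 3 libraries as a bar. From RPS27 at 9.11 against 23.3 TPM to RPS20 at 1321 against 1982 TPM the radioresistant libraries lie below all control libraries; in RPS19 and RPL21 they lie above.

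Control replicate 3 stood apart from control replicates 1 and 2 in many of these genes. Across the 78 members, its value differed from the mean of the other 2 control libraries by a median of 0.32 on the log2 scale, against 0.26 over all genes, while control replicates 1 and 2 differed from each other by 0.12 over the members and 0.11 over all genes. The difference was at least 0.5 in 24 members (30.8%), 16 above and 8 below, against 13.8% of all genes. In 50 members (64.1%) control replicate 3 was nearer to the mean of the radioresistant libraries than to that of the other controls, against 42.5% of all genes.

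Among the members, the widest gap of control replicate 3 was in the read-through row RPL36A-HNRNPH2, at -3.19 on the log2 scale, with 0.394, 1.85 and 0.218 TPM in radioresistant cells, 7.40 and 8.98 TPM in control replicates 1 and 2, and nearly 0 in control replicate 3. Among the 77 subunit genes it was in RPL41, which encodes a very short protein at a bridge between the subunits. RPL41 had 2960, 2816 and 3316 TPM in radioresistant cells and 946, 1114 and 3249 TPM in control cells, so that control replicate 3 lay among the radioresistant libraries. Its difference of 1.00 with all libraries did not pass (adjusted p = 0.15), while leaving out control replicate 3 gave a change of 1.56 (SE 0.12, adjusted p = 2.2e-09). RPS25, a small subunit protein needed for initiation at some viral entry sites, had 421, 457 and 546 TPM in radioresistant cells, against 163, 175 and 526 TPM in control cells. Here the difference was 0.93 with all libraries (adjusted p = 0.17), and it was 1.48 when control replicate 3 was left out (adjusted p = 5.0e-09). RPLP1 had 1385, 1273 and 1616 TPM in radioresistant cells and 823, 937 and 1895 TPM in control cells, and RPL8, which lines the peptidyl transferase centre, had 3055, 2369 and 3268 TPM and 1717, 2124 and 3957 TPM in the same groups. In both, control replicate 3 was the highest of all 6 libraries.

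The library was not only high. RPL29, a large subunit protein, had 1179, 1187 and 1342 TPM in radioresistant cells and 1973, 1900 and 1115 TPM in control cells. RPL6, another one, had 142, 191 and 190 TPM in radioresistant cells and 322, 313 and 173 TPM in control cells. Both were chosen after their values were seen, and in both control replicate 3 was the lowest of its group and close to the radioresistant libraries. Among the smallest differences of control replicate 3 were those of RPL27A and RPL13, at 0.01 and -0.03.

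Without control replicate 3, 29 of 78 members fell, against 34.3% of all 12827 genes tested, and 19 rose, against 21.4%. All 20 members past the threshold with all libraries stayed past it, 28 more passed, and none changed direction. In 17 of the 19 rising members (89.5%) control replicate 3 was nearer to the radioresistant mean, against 32.7% of all rising genes, and in 16 of the 29 falling members (55.2%), against 37.7% of all falling genes. These shares use the libraries that made the calls and are a description only.

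Other values of the library go both ways. In GFAP, given above, it stood with the other controls. IFI16 had 243 to 309 TPM in radioresistant cells and 70.3, 71.1 and 49.6 TPM in control cells. There control replicate 3 was lower than the other controls, by -0.50 on the log2 scale, and farther from the radioresistant libraries. FTH1, the ferritin heavy chain, had 2223, 2112 and 2387 TPM in radioresistant cells and 335, 541 and 1703 TPM in control cells, so that control replicate 3 lay nearer the radioresistant libraries. RN7SL2, the RNA of the signal recognition particle, had 1085, 203 and 1655 TPM in radioresistant cells and 123, 194 and 1425 TPM in control cells, high in control replicate 3 and low in radioresistant replicate 2. GFAP, FTH1 and RN7SL2 were chosen after their values were seen, and the part of these differences in the ribosomal protein values was not tested.

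**Figure D4:**
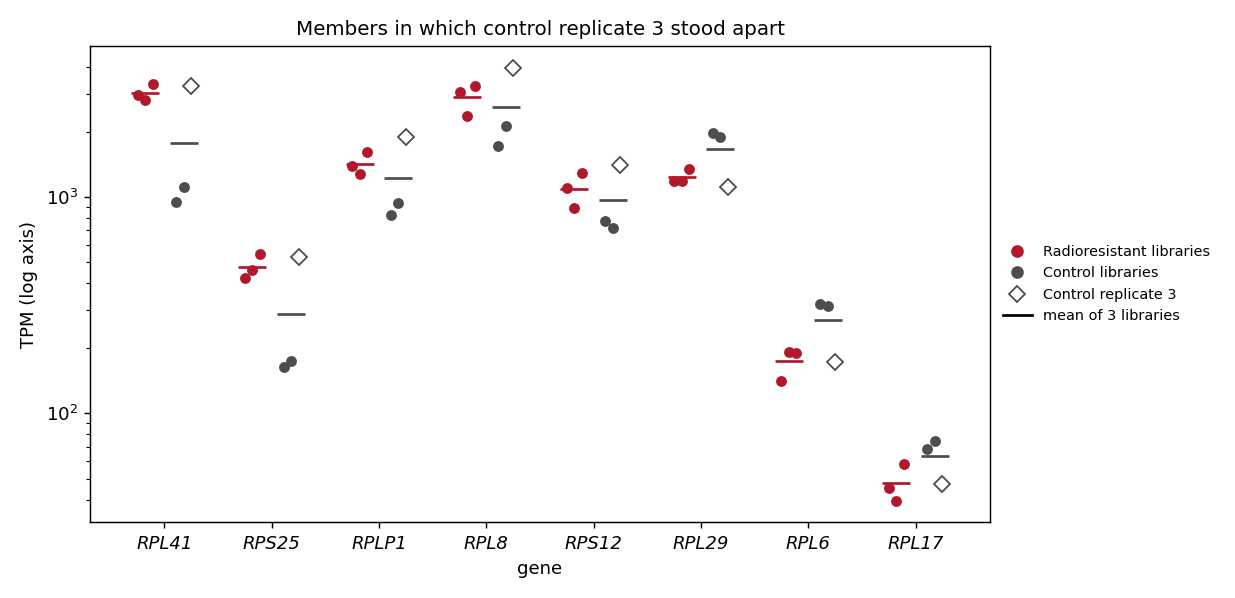
TPM (log axis) of 8 members in each radioresistant and control library, with control replicate 3 as an open diamond and the mean of 3 libraries as a bar. The diamond lies apart from the other controls in each gene, for example at 3249 TPM of RPL41 against 946 and 1114 TPM, and within or beyond the range of the radioresistant libraries.

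With shIFI16, ribosomal protein mRNAs moved mostly upward but by little: RPL9 rose most, by 0.50 on the log2 scale, RPL17, RPL8 and RPSA by 0.32 to 0.42, and RPS15 and RPL36 fell. Of 82 members, 77 were tested; the read-through rows and the Y-linked copies were not. Of the 77, 21 rose (27.3%), against 16.6% of all 12567 genes tested, and 2 fell (2.60%), against 16.3%. Every shIFI16 library was above every shNC library in 29 members (background 23.4%) and below in 3 (background 21.4%). The median change was 0.09 over the members and 0.02 over all genes, with 62 members above 0 and 15 below. No member differed by 1 log2 unit, and the largest change past the threshold was that of RPL9, 0.50 (SE 0.14, adjusted p = 0.013). RPL9 had only 14.3, 15.4 and 15.2 TPM in shIFI16 cells and 7.87, 13.0 and 10.6 TPM in shNC cells. Among the alternatives its adjusted p reached 0.066, and its TPM are among the least certain. By subunit, 13 of 46 large subunit genes rose and 1 fell (median 0.09), and 8 of 31 small subunit genes rose and 1 fell (median 0.10).

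RPL8 had 5944, 6238 and 6126 TPM in shIFI16 cells, against 4666, 4703 and 4800 TPM in shNC cells, with no overlap and close replicates (change 0.37, SE 0.06, adjusted p = 9.0e-05). RPL17, which lines the exit tunnel, had 160, 142 and 177 TPM in shIFI16 cells and 114, 126 and 116 TPM in shNC cells (change 0.42, SE 0.08, adjusted p = 0.00064). RPSA, a small subunit protein also known as the laminin receptor, had 319, 294 and 297 TPM in shIFI16 cells and 237, 242 and 252 TPM in shNC cells (change 0.32, SE 0.06, adjusted p = 0.00077). Each of these groups stood apart from the other. RPL23A, at the exit of the tunnel where the signal recognition particle docks, had 151, 152 and 146 TPM in shIFI16 cells and 123, 120 and 129 TPM in shNC cells (change 0.27, SE 0.06, adjusted p = 0.0034). Of the 9 genes around the exit tunnel, RPL17, RPL23A, RPL22 and RPL26 rose and none fell, beside the 27.3% rising over all members and 16.6% over all genes. RPL13A rose by 0.32 (adjusted p = 0.00079), but summed with its far more abundant pseudogene rows it changed by only 0.10 (adjusted p = 0.22).

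Both genes of the 5S particle rose. RPL5 had 1990, 1942 and 1923 TPM in shIFI16 cells and 1550, 1713 and 1633 TPM in shNC cells (change 0.26, SE 0.06, adjusted p = 0.0029), and RPL11 averaged 4995 ± 280 TPM in shIFI16 cells and 4330 ± 213 TPM in shNC cells (SD, n = 3 each; change 0.21, SE 0.06, adjusted p = 0.019). No P stalk gene passed: the differences were 0.03 for RPLP0, -0.02 for RPLP1 and 0.08 for RPLP2. Of the proteins at the mRNA entry, RPS3 rose (change 0.18, adjusted p = 0.022) and RPS2 did not pass (difference 0.11, adjusted p = 0.19). Of the Diamond-Blackfan anaemia genes, 7 of 18 rose, among them RPL5, RPS10, RPL26 and RPS26, and none fell, beside the same 27.3% and 16.6% rising. Among the other rises were RPL23, at 3882 ± 360 TPM in shIFI16 cells and 3132 ± 243 TPM in shNC cells (SD, n = 3 each), and RPS15A, at 3946 ± 392 and 3264 ± 241 TPM in the same groups.

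RPS15, a protein of the decoding region, had 872, 966 and 1048 TPM in shIFI16 cells and 1122, 1203 and 1161 TPM in shNC cells (change -0.28, SE 0.07, adjusted p = 0.0054). RPL36, a large subunit protein, averaged 3777 ± 432 TPM in shIFI16 cells and 4463 ± 242 TPM in shNC cells (SD, n = 3 each; change -0.25, SE 0.08, adjusted p = 0.022), and its groups overlapped. The largest difference downward, -0.43 in RPS28, did not pass (adjusted p = 0.11) and came from a mean of 6.26 TPM in shIFI16 cells and 9.02 TPM in shNC cells.

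Of the 23 members past the threshold, RPL17, RPL23A, RPL5, RPL8 and RPSA passed under all 16 alternatives. The rises were 8 with median-ratio scaling (17.4% of all genes rose) and 25 with quantile normalization (20.3%). They were 13 without a low-value filter, where 1750 genes rose in all, and 9 without the trend in the variance, where 1688 rose. They were 12 without shIFI16 replicate 2 (10.6% of all genes), 13 without shNC replicate 1 (15.1%) and 25 without shIFI16 replicate 1 (12.8%). With median-ratio scaling or without the trend, the share of rising members was below that of all genes. The rises are therefore relative to the scale of TPM and to the variance model. The falls were 0 with median-ratio scaling (19.3% of all genes fell). There was 1 fall without shIFI16 replicate 1 (18.7% of all genes), shIFI16 replicate 2 (12.7%) or shNC replicate 3 (13.4%). There was also 1 fall without a low-value filter, where 1809 genes fell in all, and 1 without the trend, where 1817 fell.

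**Figure D5:**
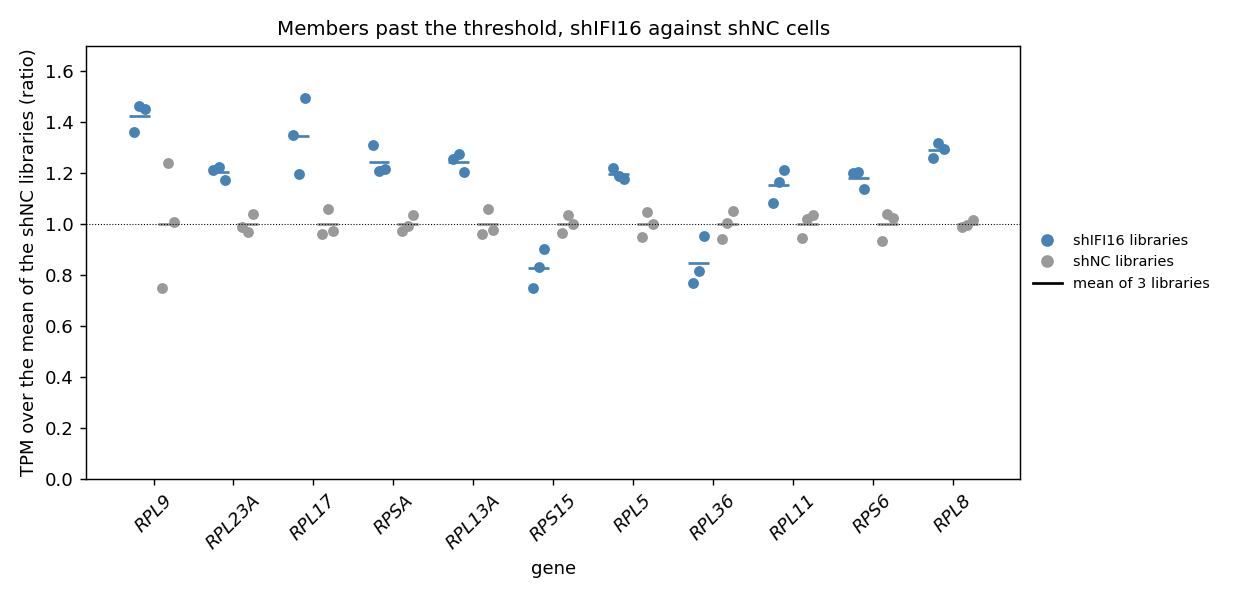
TPM of 11 members past the threshold in each shIFI16 and shNC library, divided by the mean of the 3 shNC libraries of the gene, with group means as bars and 1 as the dotted line. The shIFI16 libraries lie above all shNC libraries in 9 genes, RPL8 among them (6103 against 4723 TPM on average), below in RPS15, and overlap in RPL36.

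The comparisons share no library. RPL13A, RPL38, RPL9, RPS3A and RPS6 fell in radioresistant cells and rose with shIFI16. They are 27.8% of the 18 members that fell and 23.8% of the 21 that rose; among all genes tested in both tables, 595 did so, which is 18.2% of the falling and 28.9% of the rising genes, so the share of members was above that of all genes on one count and below it on the other. None of the 5 kept both calls under every alternative: RPL9 reached an adjusted p of 0.066 with shIFI16, and RPL13A, RPL38, RPS3A and RPS6 missed the threshold under at least 1 alternative in each comparison. RPS6 had a change of -0.42 in radioresistant against control cells and of 0.24 in shIFI16 against shNC cells, and RPL9 of -0.71 and 0.50. No member past both thresholds moved in 1 direction in both. Over the 77 members tested in both, the changes had a Spearman correlation of -0.10, against -0.06 over all genes, as a description with no test.

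Of ribosomal proteins under other names, FAU, whose product holds a small subunit protein behind a ubiquitin-like part, did not pass in either (differences -0.14 and 0.16). RPS27A, the ubiquitin fusion named above, is a member by its symbol and did not pass in either (differences -0.28 and 0.17).

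Of the 8 paralogs outside the rule, 5 were tested in each comparison, and RPL10L, RPL39L and RPL3L were not. RPS27L, a close copy of RPS27 known as a p53 target, had 96.2, 112 and 107 TPM in shIFI16 cells and 156, 166 and 179 TPM in shNC cells (change -0.66, SE 0.07, adjusted p = 4.8e-06), a larger difference than that of any member in this comparison. In the deposited TPM, RPS27L was many times higher than RPS27 in every group. The level of RPS27 is uncertain, with 30 RefSeq pseudogenes named after it, so that ratio is uncertain too. RPS27L did not pass in radioresistant against control cells (112 ± 6.49 and 118 ± 22.4 TPM, SD, n = 3 each). RPL7L1, a nucleolar relative of RPL7, fell in radioresistant cells (94.5 ± 6.37 TPM, against 146 ± 31.6 TPM in control cells; change -0.60, adjusted p = 0.011) and rose with shIFI16 (67.0 ± 12.4 TPM, against 44.1 ± 7.45 TPM in shNC cells; change 0.59, adjusted p = 0.022). RPL22L1, the paralog of RPL22, rose in radioresistant cells (change 0.60, adjusted p = 0.018). The calls of RPL7L1 and RPL22L1 did not hold under every alternative. The highest adjusted p was 0.0502 and 0.11 for RPL7L1 in radioresistant cells and with shIFI16, and 0.080 for RPL22L1 in radioresistant cells. RPL26L1 and RPL36AL did not pass in either comparison.

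Factors that build ribosomes were counted in each comparison. Of 49 ribosome biogenesis factors, 36 rose and 1 fell in radioresistant cells (median change 0.53), where 16.9% of all genes rose. With shIFI16, 30 rose and 1 fell (median 0.23), where 16.6% of all genes rose, and without shNC replicate 3 the number of rises was 19. PES1, needed to mature the large subunit, had 164 ± 24.2 TPM in radioresistant cells and 67.4 ± 5.89 TPM in control cells (SD, n = 3 each; change 1.26, adjusted p = 3.2e-05). GAR1, a part of the particles that modify uridines in ribosomal RNA, had 83.8 ± 8.71 TPM in radioresistant cells and 37.8 ± 1.77 TPM in control cells (change 1.12, adjusted p = 3.7e-05). FBL, which methylates ribosomal RNA, had 495 ± 11.3 TPM in shIFI16 cells and 350 ± 10.0 TPM in shNC cells (change 0.50, adjusted p = 6.0e-06). NCL, nucleolin, had 1098 ± 14.1 and 778 ± 43.2 TPM in the same groups (change 0.50, adjusted p = 9.5e-06).

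Other lists of the pathway follow, and differences between lists were not tested. Over all genes, 16.9% rose and 27% fell in radioresistant cells, and 16.6% rose and 16.3% fell with shIFI16. Some of the counts lie near these shares. Of 14 genes of RNA polymerase I and its factors, 5 rose and 1 fell in radioresistant cells and 4 rose and 1 fell with shIFI16. Of 11 long non-coding RNAs that host small nucleolar RNAs, which are also TOP transcripts, 5 rose and none fell in radioresistant cells, led by SNHG15 (86.3 ± 9.51 TPM, against 37.8 ± 2.88 TPM in control cells; change 1.17, adjusted p = 3.8e-05), while none rose and SNHG15 and SNHG16 fell with shIFI16. Of 24 translation factors and other TOP mRNAs, 5 rose and 5 fell in radioresistant cells, with EIF4A2, an initiation helicase, at -0.57 (adjusted p = 0.0048). With shIFI16, 8 of these 24 rose and 1 fell, with NPM1, the nucleolar chaperone, at 2262 ± 111 TPM in shIFI16 cells and 1544 ± 107 TPM in shNC cells (SD, n = 3 each; change 0.55, adjusted p = 7.8e-06).

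Of 18 genes of mTORC1 and translation control, 6 rose and 2 fell in radioresistant cells and 3 rose and 1 fell with shIFI16. The shares over all genes given above stand beside these counts. MYC, a transcription factor that drives many ribosome genes, had 89.8 ± 13.0 TPM in radioresistant cells and 27.9 ± 1.69 TPM in control cells (SD, n = 3 each; change 1.64, adjusted p = 6.1e-06). LARP1 had 182 ± 7.92 TPM in radioresistant cells and 139 ± 4.15 TPM in control cells (change 0.39, adjusted p = 0.0094). DDIT4, an inhibitor of mTORC1, had 82.0 ± 9.03 TPM in shIFI16 cells and 31.6 ± 1.55 TPM in shNC cells (change 1.35, adjusted p = 1.3e-08). Of 77 mitochondrial ribosomal protein genes, 13 rose and 9 fell in radioresistant cells (median 0.14), where 16.9% of all genes rose and 27% fell. With shIFI16, 18 of them rose and 6 fell (median 0.08), where 16.6% of all genes rose and 16.3% fell. Their share rising in radioresistant cells was near that of all genes. Whether they differed from the cytosolic ones was not tested.

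The 77 subunit genes lie on 21 chromosomes, 12 of them on chromosome 19 and 4 on the X, and 29 of them hold 60 small nucleolar RNAs within their bounds in RefSeq. In radioresistant cells 6 of these 29 host genes fell and 1 rose (median -0.16), and 12 of the other 48 fell and 1 rose (median -0.09). With shIFI16, 8 of the 29 rose and none fell, and 13 of the other 48 rose and 2 fell; over all genes 27% fell in radioresistant cells and 16.6% rose with shIFI16. Open chromatin was measured in 1 radioresistant and 1 control library, with no replicate check. A summit of the authors' lists lay within 1000 bases of the start in 23 of 62 members (37.1%) in the radioresistant library, against 38.1% of the tested genes, and in 3 of 62 (4.84%) in the control library, against 6.99%. The lists held 12877 and 2454 summits in the same order, so more starts of all kinds had a summit in the radioresistant library. The members with a summit in the control library were RPS12, RPS19 and RPSA.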

How the data were processed

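RNA libraries (12) and ATAC-seq libraries (2) of U251MG cells were analysed. The deposited RNA values are TPM: each column of both tables summed to 1000000. The build hg38 and the tools TopHat, featureCounts, Cufflinks 2.2.1 and Trim Galore 0.6.6, with MACS2 2.1.4, Bowtie2 2.2.5 and SAMtools 1.10 for ATAC-seq, are named in the submitters' processing notes. The sources used here do not say which of them made the TPM, on which annotation, or whether strand was used. The authors deposited 1 list of summits per ATAC-seq library, with a −log10 q-value as score by the layout of the file. The test was limma 3.58.1 (R 4.3.3), run on each table apart, on log2(TPM + 1), with variances moderated by a trend and robustly; changes on this scale understate those of low genes. Gene names turned into dates (28 entries, holding 0.115 to 0.190% of the TPM of a library) were dropped. The fit was tested on simulated data.

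The members, lists and tests were chosen with earlier results of these data known. By rule, the text names members past the threshold (up to 12 per direction and comparison), the 10 highest and 5 lowest, untested members, those of the role lists, RPS27A, RPS6, RPS4X, RPL10, the 5 members with the largest and 3 with the smallest difference of control replicate 3, the paralogs, FAU, IFI16 and up to 4 genes per list by smallest p; some genes that the rule names are not reported here. Members named for a low level or a summit near the start were chosen after their values were seen. Role lists were the P stalk, the 5S particle, the exit tunnel, the mRNA entry and Diamond-Blackfan anaemia genes; the other lists are named with their results. Alternatives were another pseudocount (0.1 and 5 TPM), other low-value filters, median-ratio and quantile scaling, rescaling without 494 small RNA rows (the tables hold no mitochondrially encoded rows), limma without trend and robustness, a replicate block, each library left out in turn and, added after seeing the data, member rows summed with their pseudogene rows.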

Additional observations from a re-analysis of the deposited data

How the results depend on the processing

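Over 16 alternatives in each comparison, no result past the threshold changed direction; differences near 0 that did not pass could change sign, such as RPLP1 with shIFI16 (-0.02 with all libraries, 0.03 without shNC replicate 3). In radioresistant against control cells, 71 single genes named gave 1012 values on the same side of the threshold, 105 that lost it and 11 that gained it; with shIFI16, 70 genes gave 980, 116 and 17. Leaving out 1 library gave 0 to 19 rising and 7 to 29 falling members in radioresistant cells, with a median of the members of -0.21 to -0.078. Over all genes, 1494 to 2743 rose and 2237 to 4395 fell there. With shIFI16, leaving out 1 library gave 12 to 25 rising and 1 to 3 falling members and 19 to 28 rising biogenesis factors. Over all genes, 1318 to 2310 rose and 1565 to 2307 fell there. In radioresistant cells, median-ratio scaling gave 4 rising and 8 falling members and a median of -0.0100, and quantile normalization gave 1 rising member. With shIFI16, rising and falling members numbered 13 and 1 without a low-value filter and 9 and 1 without the variance trend. Over all genes, 1750 rose and 1809 fell without the filter, and 1688 rose and 1817 fell without the trend. Median-ratio scaling gave 8 and 0 there, against 17.4% rising and 19.3% falling over all genes. Summits with a score of at least 10 lay near 3 of 62 members (4.84%) in the radioresistant and 0 in the control library. Of the 9791 tested genes, 2.24% and 0.0204% had such a summit in the same order. The lists held 668 and 56 summits with this score. The causes were not tested. Whether same-numbered libraries pair is not settled, since deviations from means of 3 libraries cannot decide it. Same-numbered correlations were -0.38, 0.24 and 0.08 in radioresistant and control cells and 0.22, 0.09 and 0.03 in shIFI16 and shNC cells. Radioresistant replicate 3 and shIFI16 replicates 1 and 3 correlated best with their own number. Radioresistant replicates 1 and 2 and shIFI16 replicate 2 did not. With a replicate block, 5 members rose and 11 fell in radioresistant cells, where 2110 of all genes rose and 3462 fell. With shIFI16 the block gave 36 rising and 5 falling members, where 3001 of all genes rose and 2609 fell. TPM keep no depth, so precision rests on 3 libraries a group.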
